A study of Mus musculus with 8 samples.

Results

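The 9 genes described here encode the enzymes that make serine from a glycolytic intermediate and those that move its carbon units through the folate cycle. Phgdh, Psat1 and Psph act in turn on phosphoglycerate to give serine. Shmt1 and Mthfd1 work on folates in the cytosol, and Shmt2, Mthfd2, Mthfd1l and Aldh1l2 in mitochondria. All 9 were found by symbol among the 21532 genes of the table. They were chosen by measured values of these mice, an earlier serine synthesis score that was lower with AF1 peptide and whose gene list may have differed. The score over the 9 genes themselves is given below and was not lower beyond the spread between mice. Differences between the groups are therefore given for these genes as a description with no p value.

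RNA-Seq was run on the livers of 8 db/db males, with 4 in the control and 4 in the AF1 peptide group and 1 library per mouse. All mice carried the db/db genotype, which removes the signalling form of the leptin receptor and leads to obesity and diabetes. AF1 peptide was derived from an N-terminal part of estrogen receptor α by deleting segments, and was coupled to a TAT sequence for entry into cells. Both groups received retro-orbital injections of 5 mg/kg from the age of 8 weeks, 2 each week over 5 weeks, and what the control injection contained is not given in the sources used here. The comparison asks which liver transcripts differ after AF1 peptide treatment.

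Serine can be taken up from blood or made in the liver, and it is the main donor of carbon units to folate. Serine hydroxymethyltransferases pass a carbon from serine to tetrahydrofolate and release glycine. The folate-bound units then serve the synthesis of purines, thymidylate and methionine, and the mitochondrial arm exports them as formate. In many cells the serine synthesis genes and Mthfd2 are targets of ATF4, the transcription factor of the amino acid response.

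AF1 peptide replicate 1 stood apart from the other 7 mice, and the group differences of the members are given with and without it. The reads behind the values numbered 35260283 to 45117528 in control mice and 23031880 to 43978158 in AF1 peptide-treated mice. The 13 mitochondrial genes took 22.4 to 34.3% of the reads in control mice and 20.8 to 37.8% in AF1 peptide-treated mice. All 9 hepatocyte markers were present, with a summed normalized count of 2462670 to 2598000 in control mice and 1791140 to 2572830 in AF1 peptide-treated mice, the lowest in AF1 peptide replicate 1. The same mouse had the lowest sums of the 8 macrophage markers (2520, against 5250 to 6393 in the other 7) and of the 6 markers of dividing cells (564, against 850.1 to 1201), and the lowest of the 8 mice in 8 of 10 cell type marker sums. Alb made up most of the hepatocyte sum, with mean normalized counts of 1890240 in control and 1626660 in AF1 peptide-treated mice. Apoa1, Apob, Ttr and Asgr1 also had lower means with AF1 peptide, and Serpina1c, Hnf4a, Cps1 and Tat had higher ones.

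Sequences next to the annotated start are shown for Psat1, the low member whose upstream stretch holds no annotated exon, and for Shmt1 and Shmt2, the cytosolic and mitochondrial forms of the same enzyme. They come from RefSeq (GRCm38.p6), run 5′ to 3′ up to the base before the start and lie on the minus strand, at chr19:15925060-15925309 for Psat1, chr11:60811266-60811515 for Shmt1 and chr10:127522445-127522694 for Shmt2. Capitals mark GC boxes (GGGCGG on either strand).
Psat1: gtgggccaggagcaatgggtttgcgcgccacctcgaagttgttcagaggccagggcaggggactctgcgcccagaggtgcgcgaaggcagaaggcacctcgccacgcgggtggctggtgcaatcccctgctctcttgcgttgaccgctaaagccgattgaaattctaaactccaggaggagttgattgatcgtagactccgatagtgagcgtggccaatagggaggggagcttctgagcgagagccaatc
Shmt1: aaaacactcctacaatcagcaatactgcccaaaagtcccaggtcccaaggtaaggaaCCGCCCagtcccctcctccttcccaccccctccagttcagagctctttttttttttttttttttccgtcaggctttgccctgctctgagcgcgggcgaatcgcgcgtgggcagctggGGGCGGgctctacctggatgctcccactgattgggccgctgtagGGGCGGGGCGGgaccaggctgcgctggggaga
Shmt2: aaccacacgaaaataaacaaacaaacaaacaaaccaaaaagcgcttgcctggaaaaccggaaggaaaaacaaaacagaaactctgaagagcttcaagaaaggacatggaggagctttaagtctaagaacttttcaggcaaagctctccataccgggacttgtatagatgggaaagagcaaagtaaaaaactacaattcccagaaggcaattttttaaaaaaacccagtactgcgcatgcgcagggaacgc

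The Shmt1 stretch held 4 matches to the GC box, 2 of which overlap, and had a GC content of 60.0%. The Shmt2 and Psat1 stretches held none, with GC contents of 40.8 and 59.6%. RefSeq windows from 250 bases before to 50 after the start were given for 8 of the 9 members, in 9 windows, because Psat1 has 2 starts. None of the 9 windows (0) held TGATGNAA, the C/EBP-ATF response element, or the E-box CACGTG on either strand, and 3.97 and 7.15% of all 32851 windows did. The antioxidant response element TGACNNNGC occurred in the windows of Phgdh and Psph and in 12.4% of all windows. The GC box occurred in 5 of the 9 windows and in 35.7% of all. These 5 were windows of Mthfd1, Mthfd1l, Psat1, Psph and Shmt1, and the Psat1 match did not lie within the stretch shown. A match in these letters is a description and not a bound site.

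The 9 enzymes differed widely in level. Per kilobase of exon, Shmt2 was the highest, with a mean of 2834 normalized counts per kilobase over the 8 mice, followed by Shmt1 (1345) and Mthfd1 (623). These 3 lay above 96.3, 93.5 and 88.0% of the 18498 genes with an annotated length. Psph followed with 67.1 normalized counts per kilobase, Mthfd1l with 45.0, Mthfd2 with 18.2 and Psat1 with 9.60. Phgdh, the first enzyme of serine synthesis, had 3.30, and Aldh1l2, which oxidises formyl-folate in mitochondria, had 0.534 and lay above only 2.04% of genes. Phgdh transcripts share 47.8% of their 50-base words with other genes, and the handling of multiply matching reads is not given. The Phgdh level is therefore uncertain and may be too low. The per-mouse ranges of Shmt2, Shmt1 and Mthfd1 did not overlap one another. Those of Psph and Mthfd1l did, through AF1 peptide replicate 1, and so did those of Mthfd2 and Psat1, of Psat1 and Phgdh, and of Phgdh and Aldh1l2.

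**Figure D1:**
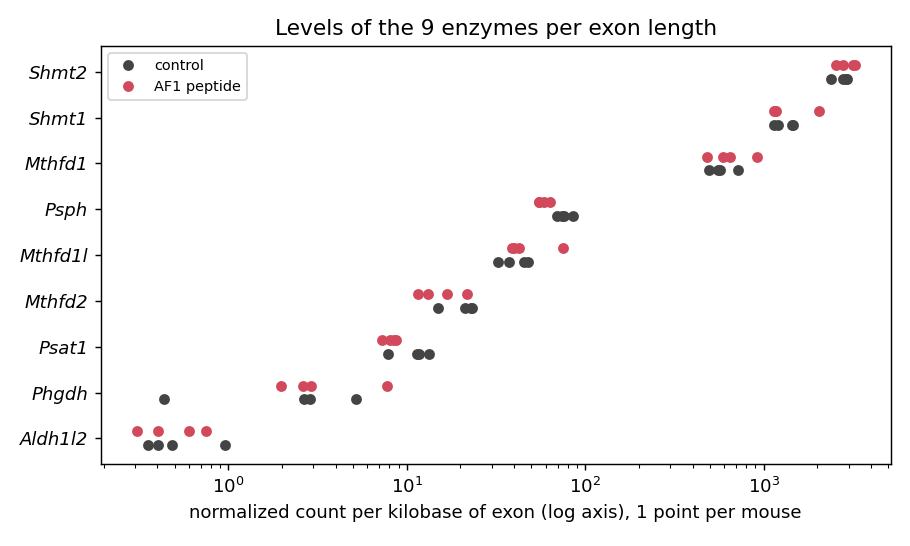
Level of each enzyme in every mouse, as normalized counts per kilobase of exon on a log axis, with control mice in grey and AF1 peptide-treated mice in red. Shmt2, Shmt1 and Mthfd1 lie far above the enzymes of serine synthesis, and Phgdh and Aldh1l2 lie at the bottom.

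Over the 9 members, the mean log2(normalized count + 1) of a mouse was 7.20 ± 0.17 with control and 7.17 ± 0.12 with AF1 peptide (SD, n = 4 each). The mice of the groups overlapped, and the difference was -0.03, or -0.04 without AF1 peptide replicate 1. This score weights Phgdh and Aldh1l2, at 1 to 16 and 2 to 7 reads per mouse, as much as the abundant members. The 3 serine synthesis genes had a mean of 4.83 ± 0.47 in control and 4.72 ± 0.30 in AF1 peptide-treated mice (SD, n = 4 each), a difference of -0.11 that was -0.01 without that mouse. This mean takes in Phgdh, at 1 to 16 reads per mouse, with a log2 ratio of 0.48, or 0.69 without AF1 peptide replicate 1. Psat1 and Psph had -0.41 and -0.39, or -0.36 each without that mouse. The 2 cytosolic genes differed by 0.09, or by -0.09 without it, and the 4 mitochondrial genes by -0.03, or -0.02. Single genes differed more than these means, in opposite directions.

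A normalized count is the reads of a gene divided by the size factor of its library. Of the 9 members, 7 averaged 10 or more normalized counts and entered the limma fit on log2(normalized count + 1). A gene was called if its unadjusted p value was under 0.05 and its fold change was more than 1.3. By this rule 1 of the 7 members was called lower, Psph, beside 1.9% of all 15989 genes tested, and 0 were called higher, beside 1.79% of all genes. No further member had an unadjusted p value under 0.05 in limma, and edgeR and DESeq2 also called 0 members higher. Psph was also the 1 member whose groups did not overlap with AF1 peptide lower (1.85% of all genes), and 0 members lay wholly higher (2.05% of all genes). Because the list came from this contrast, nothing is read from these counts. The median log2 ratio of the 7 members was 0.04, beside -0.01 for all genes tested. Without AF1 peptide replicate 1 the members' median was -0.17. Over all genes, 304 were called lower and 286 higher, and with all libraries scaled to equal totals 607 and 123. After Benjamini-Hochberg adjustment limma left 0 genes under 0.05, while 484 lower and 506 higher genes had an unadjusted p value under that level. edgeR gave 0 such genes and DESeq2 3.

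**Figure D2:**
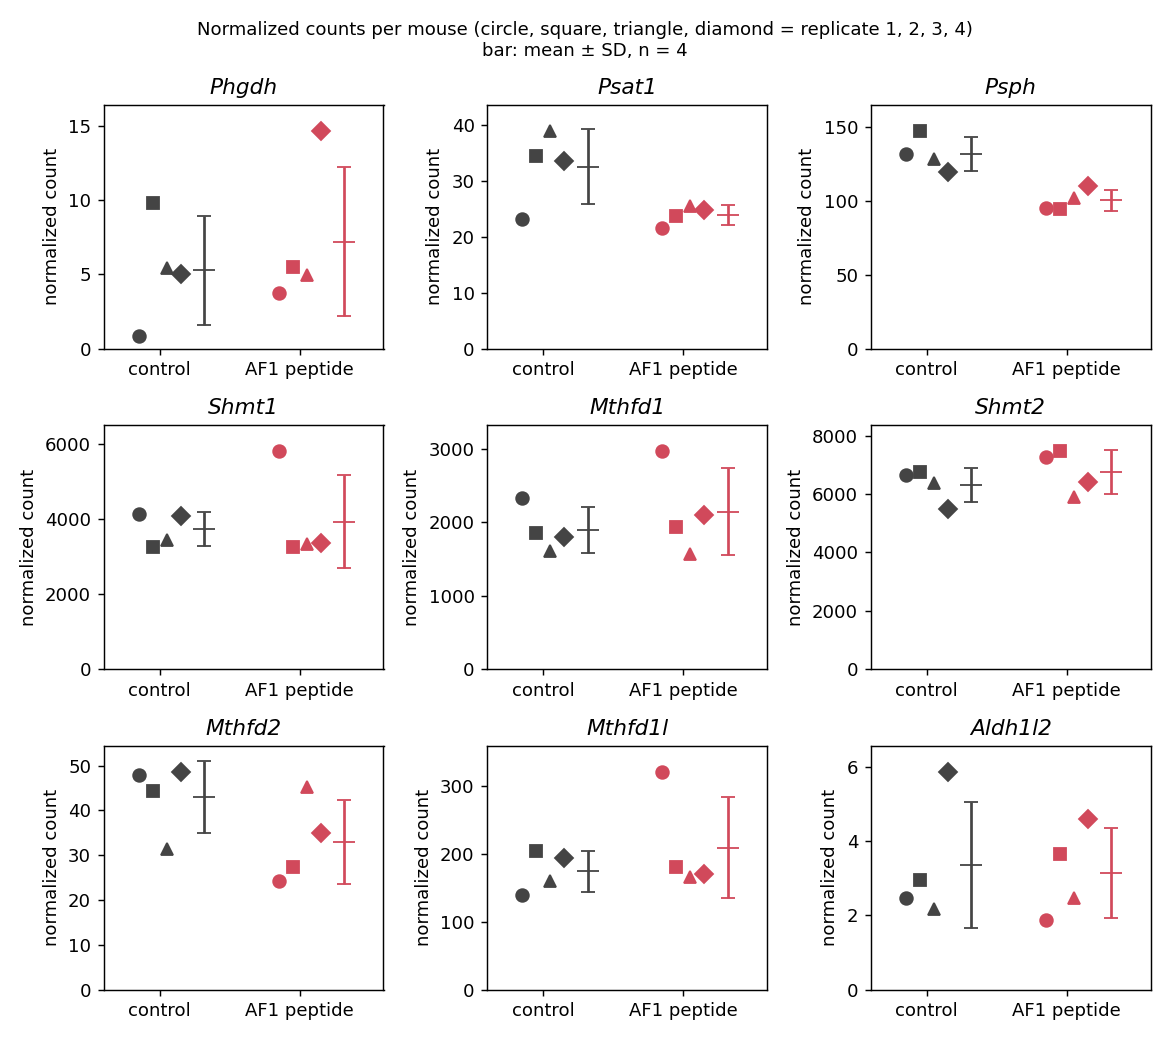
Normalized counts of the 9 members in each mouse, with control in grey and AF1 peptide in red, the symbol giving the replicate number and the bar the mean ± SD (n = 4). Psph is lower in all 4 AF1 peptide-treated mice, and AF1 peptide replicate 1 (circle) lies above all other mice in Shmt1, Mthfd1 and Mthfd1l.

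Psph, on chromosome 5, encodes the phosphatase of the last step to serine. Its normalized counts were 132, 148, 129 and 119.8 in control replicates 1 to 4 and 95.2, 95.0, 102 and 110.2 in AF1 peptide replicates 1 to 4. Every AF1 peptide-treated mouse was below every control mouse, with a gap of less than 10 counts between the nearest mice. The means were 132 ± 11.7 and 101 ± 7.20 normalized counts (SD, n = 4 each), giving a log2 ratio of AF1 peptide over control of -0.39 (standard error, SE, 0.13), or 0.765-fold. Without AF1 peptide replicate 1 it was -0.36, which is within 1.3-fold, so that Psph was then not called, and the same held without AF1 peptide replicate 2 (-0.36) and without control replicate 2 (-0.33). Between 52 and 160 reads per mouse lie behind these values. The spread among the AF1 peptide-treated mice was 7.2% of the mean, smaller than the 10.7% that counting error alone gives. In control mice the spread was 8.8%, and counting error alone gives 8.4%. The 95% exact Poisson interval of the 52 reads of AF1 peptide replicate 2 is 70.9 to 124.5 normalized counts. It covers counting error only and takes in the lowest control mouse. Of the exon length of Psph, 26.1% is shared with exons of Cct6a, a chaperonin subunit gene on the opposite strand. The library kit keeps strand, but whether strand was used in counting is not stated, so reads of the pair may not have been told apart. Cct6a itself had 1625 to 1711 normalized counts in control and 1372 to 1823 in AF1 peptide-treated mice. Its part in the Psph values was not tested.

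Psat1, on chromosome 19, encodes the aminotransferase of the second step. It had 23.1, 34.5, 38.9 and 33.5 normalized counts in control replicates 1 to 4 and 21.5, 23.7, 25.5 and 24.8 in AF1 peptide replicates 1 to 4. The other 3 control mice lay above all AF1 peptide-treated mice, and control replicate 1 lay among them. The means were 32.5 ± 6.70 and 23.9 ± 1.77 (SD, n = 4 each), with a log2 ratio of -0.41 (SE 0.23) and of -0.36 without AF1 peptide replicate 1. The spread among the AF1 peptide-treated mice (7.43% of the mean) was smaller than the 21.8% that counting error alone gives at 13 to 31 reads per mouse. The 95% exact Poisson interval of the 13 reads of AF1 peptide replicate 2 is 12.6 to 40.6 normalized counts, which covers counting error only and takes in every control mouse.

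Phgdh, on chromosome 3, encodes the dehydrogenase that commits phosphoglycerate to serine. It was listed at 0.824, 9.85, 5.40 and 5.02 normalized counts in control replicates 1 to 4 and at 3.73, 5.48, 4.94 and 14.7 in AF1 peptide replicates 1 to 4. These are 1 to 16 reads per mouse, the highest and the lowest in different groups, and a difference between the groups was not detectable at this depth. Its transcripts share 47.8% of their 50-base words with other genes, among them the pseudogenes Gm7901 and Gm9347, so even these few reads are uncertain.

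The 2 cytosolic enzymes were abundant and overlapped between the groups. Shmt1, on chromosome 11, which transfers the carbon of serine to folate, had 4155, 3265, 3458 and 4097 normalized counts in control replicates 1 to 4 and 5815, 3255, 3329 and 3367 in AF1 peptide replicates 1 to 4. AF1 peptide replicate 1 was the highest of the 8 mice, and the other AF1 peptide-treated mice lay close to the lowest control mouse. The log2 ratio was 0.04 (SE 0.19) with this mouse and -0.17 without it. Mthfd1, on chromosome 12, which carries the dehydrogenase, cyclohydrolase and synthetase steps of cytosolic folate in a single protein, had 2334, 1852, 1605 and 1798 in control replicates 1 to 4 and 2965, 1929, 1569 and 2102 in AF1 peptide replicates 1 to 4. Its log2 ratio was 0.15 (SE 0.19), and -0.02 without AF1 peptide replicate 1. In this mouse both genes were the highest of all 8.

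Among the mitochondrial enzymes, Shmt2, on chromosome 10, was the most abundant member. It had 6637, 6762, 6382 and 5476 normalized counts in control replicates 1 to 4 and 7264, 7457, 5883 and 6404 in AF1 peptide replicates 1 to 4. The means were 6314 ± 581 and 6752 ± 739 (SD, n = 4 each), a log2 ratio of 0.09 (SE 0.12) that was 0.06 without AF1 peptide replicate 1. With 4083 to 8054 reads per mouse, counting error alone gives 1.22% of the mean in control and 1.28% in AF1 peptide-treated mice, against a spread of 9.20 and 10.9%.

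Mthfd2, on chromosome 6, encodes the mitochondrial methylene-folate dehydrogenase and cyclohydrolase, which is low in most adult tissues and high in dividing cells. It had 47.8, 44.3, 31.3 and 48.6 normalized counts in control replicates 1 to 4 and 24.3, 27.4, 45.3 and 34.9 in AF1 peptide replicates 1 to 4. The groups overlapped, with AF1 peptide replicates 3 and 4 inside the control range. The means were 43.0 ± 7.99 and 33.0 ± 9.36 (SD, n = 4 each), a log2 ratio of -0.39 (SE 0.25), and of -0.26 without AF1 peptide replicate 1. At 15 to 58 reads per mouse, counting error alone gives 15.1% of the mean in control and 19.3% in AF1 peptide-treated mice, against a spread of 18.6 and 28.4%. The summed level of the 6 markers of dividing cells was 865 to 1201 in control and 564 to 1100.2 in AF1 peptide-treated mice, and its part in the Mthfd2 values was not tested. In bulk liver, fewer cells of a type and less RNA per cell cannot be told apart.

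Mthfd1l, on chromosome 10, encodes the synthetase that releases formate from mitochondrial folate. It had 139, 205, 160.0 and 193 normalized counts in control replicates 1 to 4 and 321, 181, 166 and 171 in AF1 peptide replicates 1 to 4. Only AF1 peptide replicate 1 lay outside the control range. The log2 ratio was 0.22 (SE 0.22) with it and -0.0008 without it. Aldh1l2, on chromosome 10, was listed at 2 to 7 reads per mouse in control and at 2 to 5 in AF1 peptide-treated mice, too few for a difference to be detectable.

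**Figure D3:**
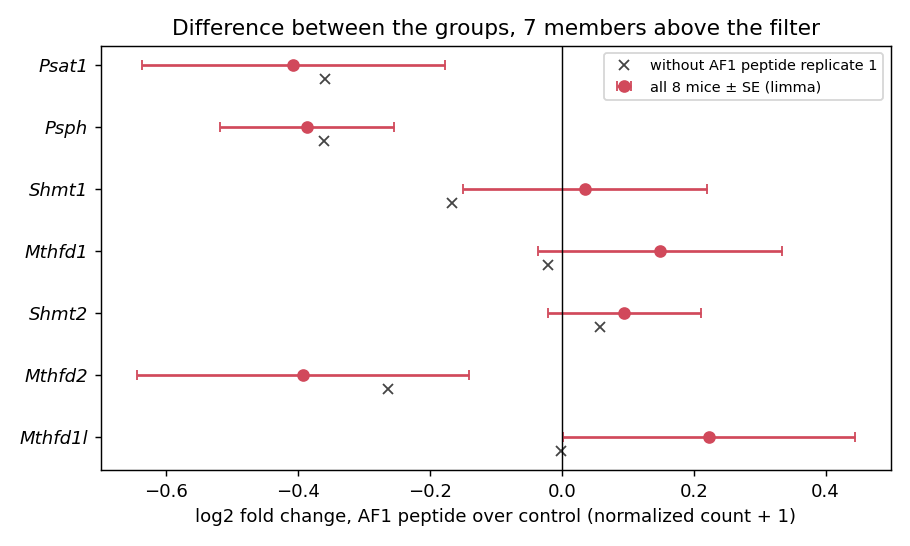
Log2 fold change of the 7 members averaging 10 or more normalized counts, AF1 peptide over control, as circles with the SE from limma (8 mice), and crosses for the value without AF1 peptide replicate 1. Psat1, Psph and Mthfd2 lie near -0.40 and remain below 0, and the positive values of Shmt1, Mthfd1 and Mthfd1l fall to or below 0 without that mouse.

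Psat1, Psph and Mthfd2 had negative values in each of the 8 fits that left out 1 mouse. These lay between -0.56 and -0.31 for Psat1, between -0.43 and -0.33 for Psph and between -0.56 and -0.26 for Mthfd2. Shmt2 stayed positive in each fit, between 0.03 and 0.16. The fits share most of their mice, and Psat1, Psph and Mthfd2 had the lowest values of the members tested. A constant sign is therefore no independent support. Within the groups, mice did not deviate alike in all members. Over the 8 mice, the deviations from the group means correlated most closely between Shmt1 and Mthfd1 (Pearson r 0.82) and between Phgdh and Psat1 (0.77), while Psat1 and Psph had 0.12 and Psat1 and Mthfd1 had -0.73. These correlations are descriptions over mice that share their libraries, and AF1 peptide replicate 1 is the extreme point of Shmt1 and Mthfd1. Of the 12438 other genes averaging 50 or more normalized counts, Mllt3 (r 0.98), Man2b2 (0.96), Zfp719 (0.95) and Knstrn (0.93) were among the most like the mean of the 9 members in these deviations. For Phgdh, where the pattern rests on 51 reads in all, they were Mapre2 (0.98), 1110038F14Rik (0.97), Plcxd1 (0.95), Zfp260 (0.95) and LOC118568032 (0.95). The mean of the 9 members weights Phgdh and Aldh1l2, with 51 and 27 reads over all mice, as much as the abundant members. The best r among so many genes over only 8 mice can be high from the search alone, so nothing is read from these genes.

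The neighbouring pathway genes were not part of the list and were tested in the same limma fit. Of 23 tested of 24 other folate genes, 1 was called lower and 0 higher, beside 1.9 and 1.79% of all genes tested. Their median log2 ratio was -0.04, or -0.08 without AF1 peptide replicate 1. The gene called lower was Mthfd2l, a mitochondrial relative of Mthfd2, with 73.3, 73.9, 84.3 and 65.3 normalized counts in control replicates 1 to 4 and 68.1, 53.0, 44.5 and 43.2 in AF1 peptide replicates 1 to 4. Only AF1 peptide replicate 1 lay within the control range. Its log2 ratio was -0.52 (SE 0.19, adjusted p = 0.763, limma with Benjamini-Hochberg), and -0.65 without that mouse. The call was lost without control replicate 3, AF1 peptide replicate 3 or AF1 peptide replicate 4. Ftcd, which breaks down formimino groups of histidine on folate, had a log2 ratio of 0.50 (SE 0.24, adjusted p = 0.763, limma with Benjamini-Hochberg), with 36812 normalized counts in AF1 peptide replicate 1 and 13408 to 18772 in the other 7 mice. Without that mouse it was 0.24. With all 8 mice it was called higher by edgeR, by DESeq2 and by limma with replicates as blocks, but not by limma without them. Fpgs, which adds glutamates to folate, had 0.15 (SE 0.12), and 0.08 without that mouse.

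Of the 22 genes of serine and glycine use and transport, all tested, 0 were called lower or higher, beside 1.9 and 1.79% of all genes. In limma 0 of the 22 had an unadjusted p value under 0.05. Their median log2 ratio was 0.13, with 15 of the 22 positive, beside 48.2% of all genes tested. This direction rested on AF1 peptide replicate 1, without which the median was -0.07 and 7 of the 22 were positive. edgeR and DESeq2 called 0 of them as well. The smallest p values were those of Sptlc2 and Sptlc1, subunits of the enzyme that joins serine to a fatty acid at the start of sphingolipid synthesis, with log2 ratios of -0.26 and -0.20, and of the neutral amino acid transporter Slc1a5, with 0.35. AF1 peptide replicate 1 had the lowest Sptlc2 count (474, against 680 to 887 in the other 7 mice) and the lowest Slc1a5 count (172, against 197 to 395). Without it the log2 ratios were -0.12 for Sptlc2, -0.22 for Sptlc1 and 0.56 for Slc1a5. Slc1a5 was then called higher and Gnmt, which methylates glycine and is named here after its values were seen, was called lower. Calls rose over all genes as well without that mouse, to 486 lower and 457 higher of 15994, from 304 and 286 of 15989.

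Purine synthesis consumes folate-bound formyl groups. Of its 13 genes, all tested, 0 were called by the 1.3-fold rule, and 1, Pfas, was higher at an unadjusted p value under 0.05. Pfas, which acts in the middle of the pathway, had 302, 318, 283 and 368 normalized counts in control replicates 1 to 4 and 519, 389, 406 and 348 in AF1 peptide replicates 1 to 4. The groups overlapped in 1 mouse of each. Its log2 ratio was 0.38 (SE 0.14, adjusted p = 0.763, limma with Benjamini-Hochberg) and 0.26 without AF1 peptide replicate 1, and it was called by edgeR and by DESeq2. Paics and Gart, enzymes of the same pathway, had log2 ratios of 0.28 and 0.24, again with the highest counts in AF1 peptide replicate 1 (2302 and 1073). Without it their log2 ratios were 0.19 and 0.12. The median of the 13 genes was 0.01, or -0.05 without that mouse.

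Of the 23 genes of ATF4 and the amino acid response, 20 were tested. Of these, 1 was called lower and 0 higher, beside 1.9 and 1.79% of all genes tested. Their median log2 ratio was -0.08, or -0.06 without AF1 peptide replicate 1. Atf4 itself had 3862 normalized counts on average with control and 4178 with AF1 peptide, a log2 ratio of 0.11 (SE 0.11). Without AF1 peptide replicate 1, the highest of the 8 mice at 4768, it was 0.05. The gene called lower was Eif2ak3, the PERK kinase that acts upstream of ATF4, with 300.0, 281, 265 and 282 normalized counts in control replicates 1 to 4 and 169, 226, 295 and 179 in AF1 peptide replicates 1 to 4. AF1 peptide replicate 3 lay within the control range. The log2 ratio was -0.41 (SE 0.17, adjusted p = 0.763, limma with Benjamini-Hochberg), and edgeR and DESeq2 did not call it. With 1 mouse left out in turn, it was called only without AF1 peptide replicate 2 or 3, and without AF1 peptide replicate 1 its log2 ratio was -0.30. The stress-induced gene Ddit4 and the ATF4 partner Cebpg had log2 ratios of -0.34 and -0.20 and were not called. Without AF1 peptide replicate 1 they were -0.45 and -0.18, and Ddit4 was then called lower, as were 486 of all 15994 genes tested.

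**Figure D4:**
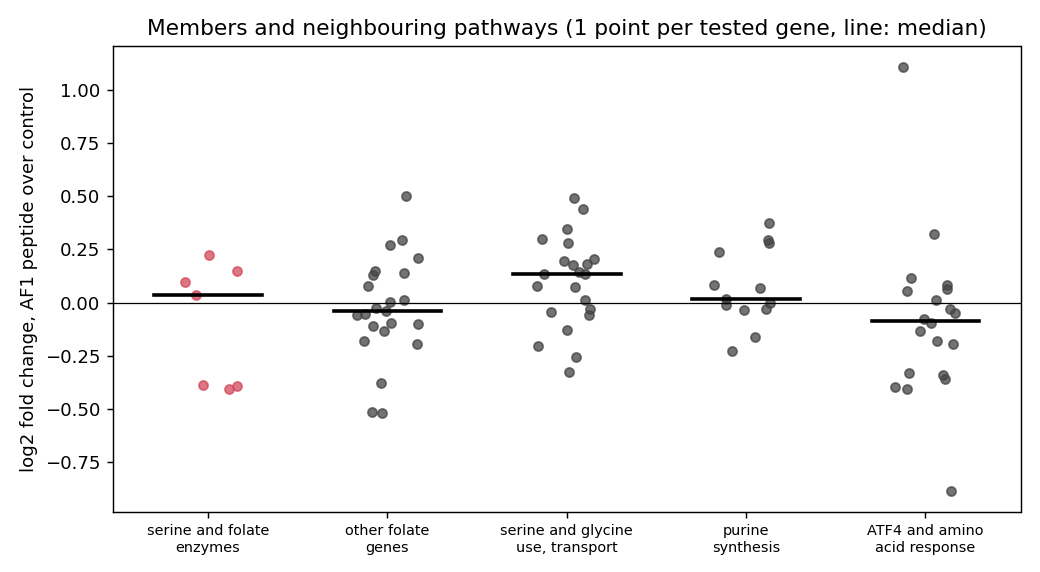
Log2 fold change, AF1 peptide over control, of the 7 tested members and of the tested genes of 4 neighbouring pathways, with 1 point per gene and a line at the median. The medians lie between -0.08 and 0.13. Without AF1 peptide replicate 1 (not plotted) the 0.13 of serine and glycine use turns to -0.07. Psat1, Psph and Mthfd2 form the lower cluster of the members.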

How the data were processed

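Liver RNA of 8 db/db mice (4 control, 4 AF1 peptide) was measured. The authors trimmed reads with Trim Galore 0.6.7, aligned them with HISAT2, used SAMtools 1.17 for sorting and GenomicAlignments for gene counts. The submitters' processing notes name mm39. They deposited a signal per gene and mouse, read counts divided by 1 size factor per library. All values came out as whole reads within 0.01 reads (100% of 172256). Depth was 23031880 to 45117528 reads. The annotation and the handling of strand and multiply matching reads are not given in the sources used here.

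Mice were grouped by the sample labels. log2(normalized count + 1) was fitted with limma 3.58.1 in R 4.3.3 (variances following the mean level) for 15989 genes averaging 10 or more, with Benjamini-Hochberg adjustment. The study gives an unmoderated test of means for comparisons of 2 groups, to which the alternative with each gene's own variance is closest. The members and gene lists were chosen with earlier results of these data known. Named are all members, the genes of each neighbouring list with p under 0.05 and at least the 3 smallest p values, and the 5 genes most alike, of which 1 is not reported here. Exon lengths and shared words came from GENCODE M21 (GRCm38). Libraries of a group differed by 14.6 to 312 chi-square per degree of freedom, so none was a duplicate. Fits were tested on simulated data. Alternatives were other pseudocounts, filters, scalings and variances, edgeR 4.0.16, DESeq2 1.42.0, a replicate block and leaving out each mouse.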

Additional observations from a re-analysis of the deposited data

Results flagged for a closer look

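For each member, the gap of a group's highest or lowest mouse to its nearest neighbour was set against the range of the 4 mice, and a mouse was taken as apart above Dixon's 95% critical value. Among 18 groups tested, 3 had such a mouse, where chance gives about 1 in 20 groups. Shmt1 (5815 normalized counts) and Mthfd1l (321) were apart as the highest in AF1 peptide replicate 1. Phgdh was apart as the highest in AF1 peptide replicate 4 (14.7 normalized counts), which rests on 16 reads.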

How the results depend on the processing

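Calls of single genes near a threshold moved most. Of the members, 1 was called lower, and 0 with a pseudocount of 5, 2 (Psat1 and Psph) without the intensity trend and 2 with each gene's own variance. Of the ATF4 genes, 2 were called lower without a filter, 0 with each gene's own variance, 0 with edgeR and 0 with DESeq2, and 1 was called higher with edgeR. Among the other folate genes, 1 was called higher with edgeR, 1 with DESeq2 and 1 with the replicate block, and among the purine genes 1 with edgeR, 1 with DESeq2 and 1 without the fold threshold. The cause was not tested. With 1 mouse left out in turn, the members called lower were 0 to 2 and their median log2 fold change -0.17 to 0.10, the low end without AF1 peptide replicate 1. Called lower and higher were 0 to 1 and 0 to 2 other folate genes, 0 to 1 and 0 to 3 purine genes, 0 to 1 and 0 to 1 genes of serine and glycine use, and 0 to 1 and 0 to 1 ATF4 genes. Of the values under alternatives, 315 stayed within their limits and 37 moved. The limit for a member's log2 fold change was its pooled SD between mice. Settings that change only the filter, the variances or the block leave that fold change as it was, so those values could not move. The 315 are therefore no measure of robustness. A reversed direction could be marked only for Psph, the 1 called member, and its direction did not reverse. A count could stay the same while the called gene changed. Among the ATF4 genes called lower, Ddit4 took the place of Eif2ak3 without AF1 peptide replicate 1. With equal totals for all libraries the median over all genes went from -0.01 to -0.10.

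The labels do not say whether the replicate numbers pair the mice, and 4 mice per group are too few to tell. Deviations of same-numbered mice correlated at 0.235, 0.02, 0.22 and -0.06, and 2 of the 4 AF1 peptide-treated mice were most like the control mouse of their number. With the replicate block, 392 genes were lower and 341 higher, Psph was still called, and the log2 fold change of each member was as before. The depth limits Phgdh and Aldh1l2, with 51 and 27 reads over all mice, and Psat1 and Mthfd2, with 13 to 58 reads per mouse.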

Other observations

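Genes in this paragraph were chosen after their values were seen. In the amino acid response list, Asns, which makes asparagine, had the largest positive log2 fold change, 1.11, and it was 0.11 without AF1 peptide replicate 1. Fgf21, a hormone gene of the same response, had the largest negative value among the tested genes, -0.88, and it was -0.11 without that mouse. Pycr1, of proline synthesis, lay below the filter with 5.77 to 13.8 normalized counts in control and 0 to 8.24 in AF1 peptide-treated mice. The groups overlapped. It was not tested in the limma fit above, and limma with no filter on low counts called it lower.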
